A study of Mus musculus with 23 samples.

Results

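The genes described here are 37 genes of peroxisome biogenesis and peroxisomal lipid oxidation in mouse liver, taken by symbol from a table of 49585 genes. They comprise 13 Pex genes, 12 enzymes of fatty acid oxidation in the peroxisome, 4 genes of acyl transport (Abcd2, Abcd3, Abcd4 and Crot), 3 of ether lipid synthesis (Agps, Gnpat and Far1), and 5 others (Cat, Hao1, Pecr, Pxmp2 and Pxmp4). Of the 37, 36 were measured well enough to be tested, with a mean of at least 10 counts. Pex6 had 0 counts in every library, which allows at most 0.0812 to 0.185 CPM (read counts scaled to a common library total) per library, taking 3 counts as the limit. Pex6 is usually expressed in liver, and the cause of the 0 was not tested, so this is a limit on the deposited counts and not on expression. Polyadenylated RNA was sequenced from the livers of C57Bl/6J mouse pups, 1 library per animal. MetS-MetS pups (n = 5) were born to and nursed by dams with diet-induced metabolic syndrome (MetS). MetS-Ct pups (n = 6) were born to such dams and nursed by control dams, Ct-MetS pups (n = 6) were born to control dams and nursed by MetS dams, and Ct-Ct pups (n = 6) met neither exposure. The dams had eaten a diet with 45% fat (MetS) or 10% fat (control) since the age of 3 weeks, for 7 or 17 weeks, and had been mated to males on the control diet. Litters were set to 5 pups at birth and given to a foster dam that had delivered that day, so every pup, Ct-Ct included, was labelled as cross-fostered. Livers were taken on postnatal day 21 (22 for MetS-Ct_97). Which pup had which length of dam's diet, litter or sex was not stated in the labels, and pups that share a litter would make p-values too small.

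Peroxisomes are membrane-bound organelles that shorten very long and branched fatty acids and bile acid precursors, which mitochondria handle poorly, and they release hydrogen peroxide in doing so. Peroxins, the products of the Pex genes, build the organelle: some place proteins in its membrane, some carry enzymes into its matrix, and the Pex11 proteins shape and divide it. In rodent liver many of the oxidation enzymes are classical targets of the nuclear receptor PPARA, which fatty acids activate.

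Decr2 and Crot were higher with nursing by MetS dams, at an adjusted p under 0.05, whichever library was left out. Pex11a had the largest difference of the Pex genes, and Scp2 was the 1 gene lower at that threshold. Promoters of these 4 genes are shown because the results below turn on them. Each runs from 250 bases before to 50 after the start of the gene and reads 5′ to 3′ on the gene's strand (RefSeq, GRCm38.p6, minus strand for all 4), with the half-site AGGTCA and the GC box GGGCGG in capitals on either strand.
Decr2, chr17:26090115-26090414: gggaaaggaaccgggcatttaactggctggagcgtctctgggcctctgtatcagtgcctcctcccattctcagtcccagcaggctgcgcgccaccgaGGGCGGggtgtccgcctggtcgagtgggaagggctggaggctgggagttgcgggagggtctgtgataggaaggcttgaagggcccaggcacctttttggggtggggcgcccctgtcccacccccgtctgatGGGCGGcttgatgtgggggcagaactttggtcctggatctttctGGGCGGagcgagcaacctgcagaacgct
Crot, chr5:8997097-8997396: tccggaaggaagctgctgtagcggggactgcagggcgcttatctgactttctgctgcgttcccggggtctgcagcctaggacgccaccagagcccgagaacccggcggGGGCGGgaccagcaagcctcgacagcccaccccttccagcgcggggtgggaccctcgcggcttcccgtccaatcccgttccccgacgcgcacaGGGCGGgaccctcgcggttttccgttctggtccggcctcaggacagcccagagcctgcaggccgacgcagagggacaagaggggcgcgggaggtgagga
Pex11a, chr7:79743082-79743381: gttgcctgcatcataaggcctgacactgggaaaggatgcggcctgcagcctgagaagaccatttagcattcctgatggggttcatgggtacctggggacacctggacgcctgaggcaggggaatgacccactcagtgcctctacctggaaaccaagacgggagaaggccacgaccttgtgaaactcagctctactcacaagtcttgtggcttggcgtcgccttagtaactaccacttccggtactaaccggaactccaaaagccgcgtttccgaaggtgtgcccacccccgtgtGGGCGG
Scp2, chr4:108118498-108118797: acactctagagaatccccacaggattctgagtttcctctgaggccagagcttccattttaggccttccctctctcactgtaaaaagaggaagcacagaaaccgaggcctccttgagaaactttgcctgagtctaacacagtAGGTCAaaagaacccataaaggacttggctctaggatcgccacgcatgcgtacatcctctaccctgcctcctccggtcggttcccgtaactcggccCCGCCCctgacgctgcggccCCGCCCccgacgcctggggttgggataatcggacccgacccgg

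The RefSeq table held promoters for 30 of the 37 genes. PPARA binds pairs of half-sites spaced by 1 base. The exact pair, AGGTCA followed by any base and AGGTCA again, was in 0 of the 30 promoters, against 0.0458% of the 10921 promoters of tested genes. The looser form, NGGNCA (N is any base) followed by any base and AGGNCA, was in 2 of the 30, Acox2 and Pex11g, against 0.943% of the promoters of tested genes. The site of Acox2 reads TGGACACAGGACA and that of Pex11g reads CGGACAAAGGGCA, each on the gene's strand, at chr14:8259064-8259076 and chr8:3467712-3467724 (GRCm38.p6), both genes on the minus strand. A single AGGTCA was in the promoters of Cat, Pex11g, Phyh and Scp2, 4 of 30 (13.3%), against 15.5% of the promoters of tested genes. The exact pair contains this half-site, whereas the looser sites of Acox2 and Pex11g do not. The GC box was in 23 of 30 (76.7%), against 65.3%. Both strands were searched, and a match describes these letters only.

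Library totals were 16876460 to 34527932 counts. Each of the 23 libraries carried the hepatocyte transcript Alb at 84728 CPM or more, and a library's median Pearson correlation with its own group was 0.977 to 0.99. Markers of other liver cells moved with the exposures. Of 11 Kupffer cell genes, 6 were higher with nursing by MetS dams at an adjusted p under 0.05 (edgeR), against 2.27% of all tested genes. In MetS-MetS against Ct-Ct 7 were, against 3.06%. All 11 had a positive log2 fold change in both comparisons. The summed level of the Kupffer genes was 566 to 950.2 CPM in MetS-MetS livers and 654 to 925 in Ct-MetS livers. It was 596 to 669 in MetS-Ct livers and 449.6 to 578 in Ct-Ct livers. Of 11 erythroid genes, 5 were higher at that threshold in each of these comparisons, and 10 had a positive log2 fold change in each. The erythroid sums were 426 to 775 CPM in MetS-MetS livers and 206 to 498 in Ct-MetS livers. They were 185 to 306 in MetS-Ct livers and 287 to 833 in Ct-Ct livers. Of 8 hepatocyte genes, 7 had enough counts to be tested, and their lowest adjusted p with edgeR was 0.0882 in MetS-MetS and 0.0713 with nursing by MetS dams. DESeq2 called 1 of them higher in MetS-MetS, and DESeq2 and limma-voom each called 1 lower with nursing. The eighth, the transferrin gene Trf, averaged 0.87 counts per library, although liver usually expresses it, and the cause of this was not tested. Of 8 stellate cell genes edgeR called 1, Pdgfrb, lower in MetS-MetS. Of 7 sinusoidal endothelium genes, 3 had an unadjusted p under 0.05 in each of these comparisons, and DESeq2 called 1 higher in MetS-MetS. Of 5 bile duct genes, 1 had such a p in MetS-MetS, and of 7 lymphocyte genes 1 had it in MetS-MetS and 2 with nursing. No gene of these lists was at 0 in all 23 libraries. The part of these markers in the results below was not tested. In bulk liver, fewer cells of a type and less RNA per cell cannot be told apart.

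The 36 genes spanned a wide range of levels, here as CPM per kilobase of exon. Cat, the catalase that removes hydrogen peroxide, was the most abundant in each group, with 706 ± 51.4 in MetS-MetS and 579 ± 68.4 in Ct-Ct (SD). Phyh, which starts the alpha-oxidation of phytanic acid, came next with 601 ± 47.0 and 421 ± 98.8, and the thiolase gene Acaa1b followed with 318 ± 119 and 156.7 ± 61.7. Phyh lay wholly above Acaa1b in both groups, whereas Cat and Phyh overlapped, as did Acaa1b and the next in order, Crot in MetS-MetS and Hao1 in Ct-Ct. Of the Pex genes, Pex16 was highest in MetS-MetS (45.3 ± 9.01) and in Ct-Ct (33.8 ± 6.23), and it overlapped with Pex19 in both groups. Far1, which supplies fatty alcohols for ether lipids, was the lowest gene tested, at 1.26 ± 0.149 in MetS-MetS and 1.21 ± 0.337 in Ct-Ct.

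Exposure both before birth and during nursing was addressed by comparing MetS-MetS with Ct-Ct, and this gave the most differences. Of the 36 genes, 8 rose and 1 fell at an adjusted p under 0.05 (edgeR's quasi-likelihood test), against 5.78% of all 14466 tested genes in either direction, 3.06% higher and 2.72% lower. The 8 were Pex11a, Pex13, Pex19, Hsd17b4, Acaa1a, Decr2, Ech1 and Crot, and the gene that fell was Scp2. At an unadjusted p under 0.05 there were 20, where 24.4% of all tested genes were. The 836 tested genes behind the 5.78% became 219 without Ct-Ct_129, 323 without Ct-Ct_139, 326 without MetS-MetS_110, 382 without MetS-MetS_157, 417 without Ct-Ct_4, 537 without MetS-MetS_154 and 1354 without Ct-Ct_33. The median log2 fold change was 0.29 over the 36 genes, and -0.0038 over all tested genes. In 24 of the 36 the mean was highest in MetS-MetS, and in 19 it was lowest in Ct-Ct. The order of the group means was not counted over all tested genes, so these 2 counts have no share to be set against. MetS-MetS_39 alone held the highest value of the series for 12 of the 36. The 7 Kupffer and 5 erythroid genes given above were higher in the same comparison.

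Of the 12 tested Pex genes, 3 rose. Pex11a, which elongates and divides peroxisomes, had 171, 64.6, 67.6, 89.7 and 66.9 CPM in the 5 MetS-MetS livers (MetS-MetS_39, MetS-MetS_109, MetS-MetS_110, MetS-MetS_154 and MetS-MetS_157, the order used throughout), against 29.4 to 58.0 CPM (median 43.6) in Ct-Ct (log2 fold change 1.14 ± 0.26, adjusted p = 0.0169). The groups did not overlap, and animal 39 stood far above the other MetS-MetS livers. Without animal 39 the difference was 0.79, adjusted p = 0.0384.

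Pex19, the cytosolic receptor and chaperone of peroxisomal membrane proteins, had 185, 141, 138, 157.3 and 146 CPM in MetS-MetS, against 88.3 to 128 CPM (median 103) in Ct-Ct (log2 fold change 0.55 ± 0.11, adjusted p = 0.012). All MetS-MetS livers again lay above all Ct-Ct livers. Pex13, part of the docking complex for matrix proteins, had 84.4, 63.6, 68.7, 76.4 and 67.0 CPM in MetS-MetS, against 49.6 to 68.3 CPM (median 53.7) in Ct-Ct (log2 fold change 0.36 ± 0.11, adjusted p = 0.0494). Here the groups overlapped, through Ct-Ct_33, and the call was lost without any 1 of 15 libraries (MetS-Ct_70, MetS-Ct_85, MetS-Ct_97, MetS-Ct_149, Ct-MetS_24, Ct-MetS_169, MetS-MetS_39, MetS-MetS_110, MetS-MetS_154, MetS-MetS_157, Ct-Ct_4, Ct-Ct_10, Ct-Ct_129, Ct-Ct_130 and Ct-Ct_139; adjusted p up to 0.117).

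The import receptors did not pass the test. Pex5, the receptor for most matrix enzymes, had 112, 124, 117, 135 and 120.3 CPM in MetS-MetS and 104 to 142 CPM (median 133) in Ct-Ct (-0.082 ± 0.10, adjusted p = 0.643). Pex7, which imports a smaller set including phytanoyl-CoA hydroxylase and Agps, had 74.6, 98.8, 91.1, 88.4 and 84.4 CPM in MetS-MetS and 75.5 to 116 CPM (median 81.5) in Ct-Ct (-0.0042 ± 0.11, adjusted p = 0.986). Every MetS-MetS value lay within the Ct-Ct range for Pex5 and 4 of the 5 did for Pex7, with animal 39 below it. The remaining Pex genes, of docking (Pex14), membrane assembly (Pex3, Pex16), receptor recycling (Pex2, Pex10, Pex26) and division (Pex11g), had log2 fold changes from -0.26 for Pex11g to 0.42 for Pex16, with adjusted p of 0.0992 or more. Antisense or unclassified transcripts overlap 41.1% of the exon bases of Pex11g and 28.3% of those of Pex14 on the other strand, Dlec1 overlaps 11.4% of those of Acaa1b, and whether the counting used strand is not stated.

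Of the 12 oxidation enzymes, 4 rose and 1 fell. Decr2, a dienoyl-CoA reductase needed for polyunsaturated fatty acids, had 296, 258, 252, 325 and 275 CPM in MetS-MetS, against 117 to 174 CPM (median 144) in Ct-Ct (log2 fold change 0.95 ± 0.17, adjusted p = 0.00654). Ech1, a dienoyl-CoA isomerase that also acts in mitochondria, had 366, 207, 219, 285 and 240.2 CPM in MetS-MetS, against 66.9 to 178 CPM (median 112) in Ct-Ct (log2 fold change 1.12 ± 0.25, adjusted p = 0.0168). For both genes every MetS-MetS liver lay above the whole Ct-Ct range.

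Hsd17b4, the D-bifunctional protein that carries out the middle steps of oxidation for branched fatty acids and bile acid precursors, had 502, 401, 394, 452 and 411 CPM in MetS-MetS, against 244 to 337 CPM (median 289) in Ct-Ct (log2 fold change 0.58 ± 0.12, adjusted p = 0.0115). Acaa1a, a thiolase of the last step, had 188, 182, 152, 195 and 168 CPM in MetS-MetS, against 85.8 to 128 CPM (median 106) in Ct-Ct (log2 fold change 0.74 ± 0.20, adjusted p = 0.0327). Neither gene's groups overlapped, and the Acaa1a call was lost without any 1 of 8 libraries (MetS-MetS_39, MetS-MetS_109, MetS-MetS_110, MetS-MetS_154, MetS-MetS_157, Ct-Ct_129, Ct-Ct_130 and Ct-Ct_139; adjusted p up to 0.0824).

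Scp2 encodes both a thiolase for branched chains and a small lipid carrier. It had 137, 173, 149.6, 161 and 150.5 CPM in MetS-MetS, against 176 to 244 CPM (median 219.5) in Ct-Ct (log2 fold change -0.47 ± 0.12, adjusted p = 0.0285), with every MetS-MetS liver below every Ct-Ct liver. The call was lost without any 1 of 5 libraries (MetS-MetS_39, MetS-MetS_110, MetS-MetS_157, Ct-Ct_129 and Ct-Ct_139; adjusted p up to 0.0755). Of the 50-base stretches of its transcripts, 29.7% also occur in the pseudogene Scp2-ps2.

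Ehhadh, Acaa1b, Phyh and Amacr did not pass with edgeR, and all 4 passed with DESeq2. Ehhadh, the L-bifunctional protein for straight and dicarboxylic chains, had 1517, 203, 195, 466 and 269.8 CPM in MetS-MetS and 153.8 to 271 CPM (median 221) in Ct-Ct (1.28 ± 0.42, adjusted p = 0.071). Animal 39 set that mean: without it the log2 fold change was 0.38, adjusted p = 0.435. The thiolase gene Acaa1b had 929, 466, 377, 806 and 538 CPM in MetS-MetS and 195 to 481 CPM (median 269) in Ct-Ct (1.02 ± 0.32, adjusted p = 0.0588), and the groups overlapped. Acaa1a and Acaa1b are close copies, with 30.5% of the 50-base stretches of Acaa1b and 12.4% of those of Acaa1a shared, so their split is uncertain. Phyh had 1139, 1153, 1069.7, 1049 and 1276 CPM in MetS-MetS and 576 to 1031 CPM (median 799) in Ct-Ct (0.51 ± 0.16, adjusted p = 0.0547), with no overlap. Amacr, the racemase that readies branched chains for oxidation, had 186, 190.1, 199, 208 and 156 CPM in MetS-MetS and 128 to 175 CPM (median 153.6) in Ct-Ct (0.29 ± 0.10, adjusted p = 0.0723). The branched-chain oxidases Acox2 (-0.040 ± 0.16, adjusted p = 0.905) and Acox3 (-0.064 ± 0.10, adjusted p = 0.744) and the lyase Hacl1 (0.059 ± 0.18, adjusted p = 0.878), which follows Phyh, were close to 0, while 27.4% of the 50-base stretches of Hacl1 occur in the overlapping gene Gm49387.

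Among the transport genes Crot rose. Its product links medium-chain acyl groups to carnitine so that they can leave the peroxisome. Crot had 1478, 717, 804, 1589.9 and 679 CPM in MetS-MetS, against 356 to 829 CPM (median 459.8) in Ct-Ct (log2 fold change 1.02 ± 0.25, adjusted p = 0.024). The groups overlapped, with Ct-Ct_33 above 3 of the 5 MetS-MetS livers. The call was lost without any 1 of 4 libraries (MetS-MetS_39, MetS-MetS_154, Ct-Ct_129 and Ct-Ct_139, with adjusted p up to 0.0657). It was also lost with no filter on low counts (adjusted p = 0.0515) and with only the groups compared (adjusted p = 0.0611). Abcd2, a transporter of very long chain acyl-CoA, had 126, 210.1, 236, 289 and 206 CPM in MetS-MetS and 103 to 189.5 CPM (median 129.3) in Ct-Ct (0.64 ± 0.23, adjusted p = 0.0941). It was the 1 transport gene that was lowest among the MetS-MetS livers in animal 39, and without that animal it passed (0.78, adjusted p = 0.0448). Abcd3, which imports branched and dicarboxylic acyl-CoA, had 669, 594, 547, 634 and 534 CPM in MetS-MetS and 348 to 494 CPM (median 473) in Ct-Ct (0.39 ± 0.15, adjusted p = 0.107), without overlap. Abcd4, known as a lysosomal transporter, was at -0.088 ± 0.13, adjusted p = 0.72.

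The count of ether lipid genes past the threshold was 0 of 3 (edgeR, DESeq2 and limma-voom, and 0 at an unadjusted p under 0.05), with log2 fold changes of 0.046 for Agps, 0.057 for Far1 and 0.080 for Gnpat. Cat had 1671, 2038, 1819, 1892 and 1801 CPM in MetS-MetS and 1281 to 1827 CPM (median 1503) in Ct-Ct (0.29 ± 0.12, adjusted p = 0.135). Pxmp4, a membrane protein, was at 0.50 ± 0.21, adjusted p = 0.141, Hao1, the glycolate oxidase, at 0.18 ± 0.12, adjusted p = 0.369, and Pxmp2, a membrane channel, at 0.19 ± 0.12, adjusted p = 0.35. The enoyl-CoA reductase gene Pecr was at -0.025 ± 0.13, adjusted p = 0.931.

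**Figure D1:**
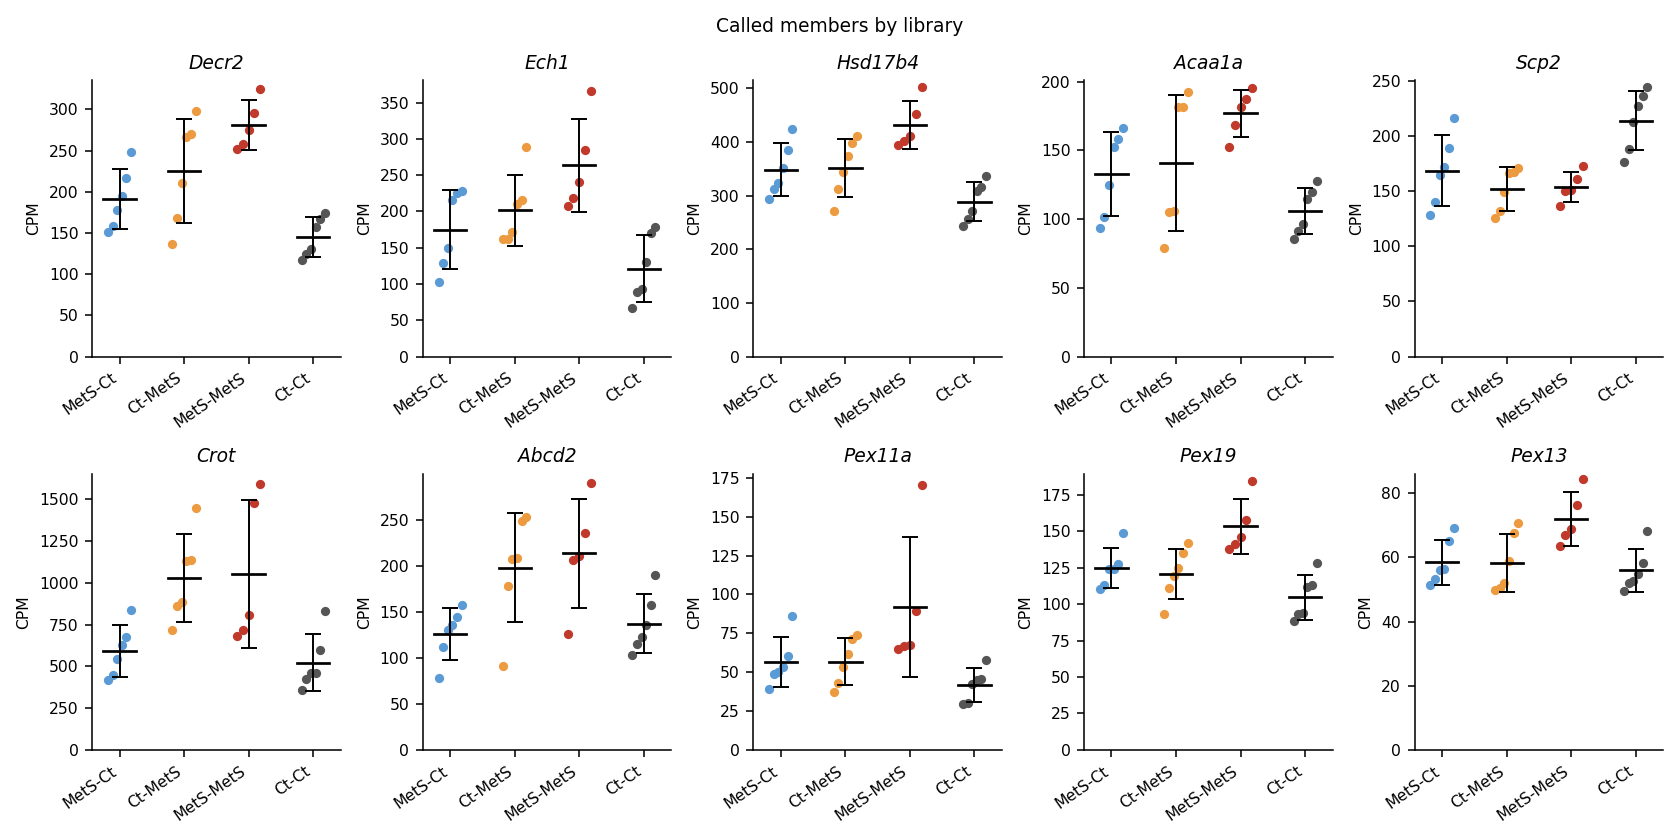
CPM of the 10 genes called in any comparison, by group. Points are libraries, thick bars the mean and thin bars ± SD (n = 6, 6, 5 and 6 from left to right), and each y axis starts at 0. For Decr2, Ech1, Hsd17b4, Acaa1a, Pex11a and Pex19 every MetS-MetS point lies above every Ct-Ct point, and for Scp2 below.

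Non-overlap between MetS-MetS and Ct-Ct held for 8 genes on the higher side (Pex11a, Pex19, Hsd17b4, Acaa1a, Phyh, Decr2, Ech1 and Abcd3), where 2.44% of all tested genes did so, and for Scp2 on the lower side, where 1.97% did.

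The effect of the nursing dam was addressed by setting the 11 pups with a MetS foster dam against the 12 with a control foster dam, averaged over both prenatal states. Of the 36 genes 5 rose (Crot, Decr2, Abcd2, Ech1 and Hsd17b4), against 2.27% of all tested genes, and 1 fell (Scp2), against 1.95%. In either direction 4.22% of all tested genes passed. The 611 genes behind this share became 349 without MetS-MetS_154, 359 without Ct-Ct_129, 391 without Ct-MetS_145, 394 without Ct-Ct_4, 402 without Ct-MetS_169, 407 without Ct-MetS_24 and 923 without Ct-MetS_50. At an unadjusted p under 0.05 there were 17 of the 36, where 21.2% of all tested genes were. The 5 risers were 3 of the 12 oxidation enzymes and 2 of the 4 transport genes. None of the 12 Pex genes passed with edgeR, while 6 were under an unadjusted p of 0.05, 2 passed with DESeq2 (Pex11a and Pex19) and 0 with limma-voom. The 6 Kupffer and 5 erythroid genes given above were higher in the same comparison.

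Crot ranged over 679 to 1589.9 CPM (median 885) in pups nursed by MetS dams and 356 to 834 CPM (median 503) in those nursed by control dams (log2 fold change 0.91 ± 0.18, adjusted p = 0.00721). It averaged 1028 ± 261 CPM in Ct-MetS and 1054 ± 443 in MetS-MetS, against 591 ± 155 in MetS-Ct and 520.3 ± 170.1 in Ct-Ct. Decr2 ranged over 137 to 325 CPM (median 267) in pups nursed by MetS dams and 117 to 249 CPM (median 163) in those nursed by control dams (log2 fold change 0.59 ± 0.12, adjusted p = 0.00801). The ranges overlapped for both genes, and both calls held without any 1 of the 23 libraries.

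Abcd2 was 91.1 to 289 CPM (median 208) after nursing by MetS dams and 77.6 to 189.5 CPM (median 133) after nursing by control dams (log2 fold change 0.64 ± 0.16, adjusted p = 0.0259). The Abcd2 call was lost without MetS-MetS_154 (0.58, adjusted p = 0.0564) and, in all libraries, with no filter on low counts (0.63, adjusted p = 0.0551). Ech1 was 162 to 366 CPM (median 216) in pups nursed by MetS dams and 66.9 to 228 CPM (median 140.2) in those nursed by control dams (log2 fold change 0.66 ± 0.17, adjusted p = 0.0337), and Hsd17b4 was 271 to 502 CPM (median 398) and 244 to 425 CPM (median 314) in the same order (log2 fold change 0.30 ± 0.082, adjusted p = 0.0418). Scp2 was 125 to 173 CPM (median 150.5) with MetS dams and 128 to 244 CPM (median 189) with control dams (log2 fold change -0.31 ± 0.085, adjusted p = 0.0397). This average covers unlike prenatal states. Per kilobase of exon, Scp2 averaged 61.5 ± 7.81 CPM in Ct-Ct and 43.6 ± 5.67 in Ct-MetS. It averaged 48.4 ± 9.29 in MetS-Ct and 44.3 ± 3.90 in MetS-MetS, a smaller gap. All 4 genes overlapped between the 2 kinds of nursing, as did every other of the 36, where 0.0484% of all tested genes were higher without overlap. Ech1 lost its call without any 1 of 9 libraries (MetS-Ct_85, Ct-MetS_24, Ct-MetS_145, Ct-MetS_169, MetS-MetS_39, MetS-MetS_154, Ct-Ct_129, Ct-Ct_130 and Ct-Ct_139; adjusted p up to 0.0615). Scp2 lost it without any 1 of 13 libraries (MetS-Ct_53, MetS-Ct_70, MetS-Ct_85, Ct-MetS_145, Ct-MetS_169, MetS-MetS_39, MetS-MetS_110, MetS-MetS_154, MetS-MetS_157, Ct-Ct_10, Ct-Ct_129, Ct-Ct_130 and Ct-Ct_139; adjusted p up to 0.0725). Hsd17b4 lost it without any 1 of 15 libraries (MetS-Ct_70, MetS-Ct_85, MetS-Ct_97, MetS-Ct_149, Ct-MetS_24, Ct-MetS_65, Ct-MetS_145, Ct-MetS_169, MetS-MetS_39, MetS-MetS_154, MetS-MetS_157, Ct-Ct_4, Ct-Ct_129, Ct-Ct_130 and Ct-Ct_139; adjusted p up to 0.0755).

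The peroxins, Acaa1a, Acaa1b, Ehhadh and Cat did not pass with edgeR in this comparison. DESeq2, however, called Pex11a, Pex19, Acaa1a (adjusted p = 0.0475) and Acaa1b (adjusted p = 0.0206). Pex11a was at 0.57 ± 0.18, adjusted p = 0.0688, Pex19 at 0.25 ± 0.079, adjusted p = 0.0693 and Pex13 at 0.18 ± 0.076, adjusted p = 0.173. Pex5 was at -0.067 ± 0.066, adjusted p = 0.6 and Pex7 at -0.052 ± 0.075, adjusted p = 0.734. Acaa1a and Acaa1b had larger differences than the import receptors, with wider errors. Acaa1a was at 0.41 ± 0.14, adjusted p = 0.0872 and Acaa1b at 0.70 ± 0.22, adjusted p = 0.0719. Ehhadh was at 0.46 ± 0.29, adjusted p = 0.39, and without MetS-MetS_39 at 0.0050, adjusted p = 0.992. Cat was at 0.15 ± 0.081, adjusted p = 0.288.

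**Figure D2:**
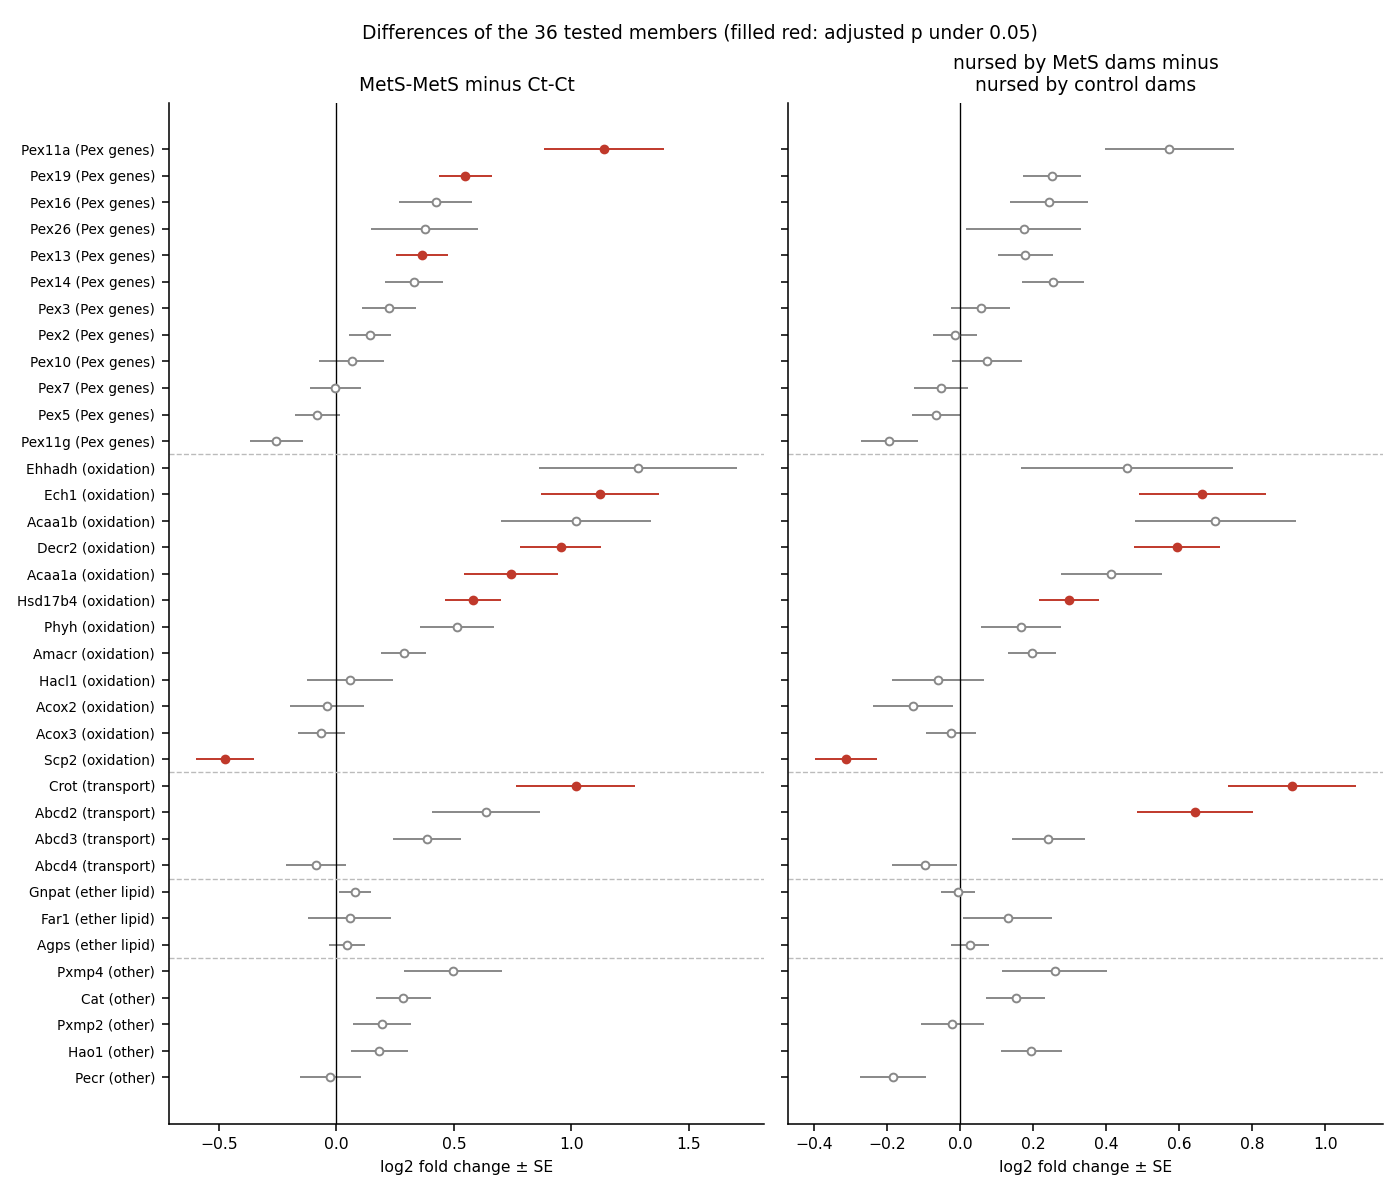
Log2 fold changes ± SE (x axes, on different scales) of the 36 tested genes by role, MetS-MetS minus Ct-Ct on the left and nursed by MetS dams minus nursed by control dams on the right. Filled red points have an adjusted p under 0.05: 9 on the left, 3 of them Pex genes, and 6 on the right, 0 of them Pex genes.

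Nursing by a MetS dam alone was addressed by Ct-MetS against Ct-Ct. Here 1 of the 36 genes was called, Scp2, which fell (log2 fold change -0.50 ± 0.12, adjusted p = 0.0397), against 0.954% of all tested genes in either direction. The 138 genes behind this share became 12 when Ct-MetS_169 was left out, 26 for Ct-Ct_10, 43 for Ct-Ct_4, 46 for Ct-Ct_139, 56 for Ct-Ct_129, 80 for Ct-MetS_63 and 246 for Ct-Ct_33. Of the 36, 9 had an unadjusted p under 0.05, where 13.9% of all tested genes did. It ranged over 125 to 171 CPM (median 158) in Ct-MetS and 176 to 244 CPM (median 219.5) in Ct-Ct, without overlap, where 0.512% of tested genes were lower without overlap. Crot (0.98 ± 0.24, adjusted p = 0.0543) and Decr2 (0.63 ± 0.16, adjusted p = 0.0615) were just outside the threshold, and Ech1 was at 0.73 ± 0.24, adjusted p = 0.145. The Scp2 call was lost with no filter on low counts, with counts thinned to the smallest library, and in a fit of the 2 groups alone, and leaving out 1 library at a time gave 0 to 3 called genes. In this comparison 6 Kupffer and 4 erythroid genes were called higher. Of the 11 erythroid genes, however, 5 had a positive and 6 a negative log2 fold change (median -0.34). Nursing by a MetS dam after prenatal exposure, MetS-MetS against MetS-Ct, gave 0 calls among the 36 genes with edgeR, DESeq2 and limma-voom. Of all tested genes edgeR called 0.415%, which is 60 genes, and DESeq2 136. At an unadjusted p under 0.05 there were 14 of the 36, where 14.1% of all tested genes were, while 9 erythroid genes were higher. The smallest p values belonged to Crot (0.83 ± 0.25, adjusted p = 0.153) and Abcd2 (0.76 ± 0.23, adjusted p = 0.153), and Decr2 (0.55 ± 0.17, adjusted p = 0.154) was the 1 gene without overlap, where 1.04% of tested genes were higher without overlap. Ct-MetS against Ct-Ct and MetS-MetS against MetS-Ct share no library. Of the 36 genes 22 were higher in both, 6 lower in both and 8 opposite. Thus 77.8% had the same sign, against 63.3% of all tested genes. The genes were chosen with earlier results of these data known, so no conclusion is drawn from these shares.

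Prenatal exposure alone, MetS-Ct against Ct-Ct, gave 0 calls among the 36 genes with edgeR, DESeq2 or limma-voom. Of all tested genes edgeR called 0% and DESeq2 12 genes. At an unadjusted p under 0.05 there were 6 of the 36, where 5.90% of all tested genes were. Of the 11 erythroid genes 10 had a negative log2 fold change (median -0.74). DESeq2 called 4 of them lower and edgeR 0. All 11 Kupffer genes had a positive log2 fold change, 5 with an unadjusted p under 0.05 (edgeR) and 0 called. Scp2 was at -0.35 ± 0.12, adjusted p = 0.825, Decr2 at 0.40 ± 0.16, adjusted p = 0.825, Ech1 at 0.53 ± 0.24, adjusted p = 0.825, Hsd17b4 at 0.27 ± 0.11, adjusted p = 0.825 and Pex19 at 0.25 ± 0.11, adjusted p = 0.825. For Scp2 the groups held 128 to 217 CPM (median 168) in MetS-Ct and 176 to 244 CPM (median 219.5) in Ct-Ct, and overlapped. Averaged over both nursing states, prenatal exposure also gave 0 calls with edgeR and limma-voom and 1 with DESeq2 (Pex19). Of all tested genes edgeR called 0.00691%, which is 1 gene, and DESeq2 140. Of the 36, 12 had an unadjusted p under 0.05, where 16.3% of all tested genes did. Pex19 (0.30 ± 0.079, adjusted p = 0.156), Hsd17b4 (0.28 ± 0.082, adjusted p = 0.164), Pex11a (0.57 ± 0.18, adjusted p = 0.173) and Phyh (0.35 ± 0.11, adjusted p = 0.173) had the smallest p values, while Abcd2 (-0.0043 ± 0.16, adjusted p = 0.994) and Crot (0.11 ± 0.18, adjusted p = 0.782), called with nursing, were near 0. The interaction, which tests whether the nursing effect differs between the prenatal states, gave 0 calls among the 36 genes with all 3 tools, and of all tested genes edgeR called 0% and DESeq2 4. At an unadjusted p under 0.05 there were 2 of the 36, Pex2 and Scp2, near the 5.44% of all tested genes, and their adjusted p was 0.892. The Scp2 estimate was 0.37, the highest of the oxidation enzymes, which is a smaller fall with nursing after prenatal exposure.

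Pex genes and oxidation enzymes were then set side by side. The median log2 fold change was 0.28 for the Pex genes and 0.55 for the oxidation enzymes in MetS-MetS, 0.076 and 0.21 in Ct-MetS, and 0.028 and 0.29 in MetS-Ct, all against Ct-Ct. With nursing by MetS dams it was 0.12 and 0.25. The oxidation median was thus higher by 0.27 in MetS-MetS, 0.13 in Ct-MetS, 0.26 in MetS-Ct and 0.12 with nursing. It was higher by 0.14 with prenatal exposure averaged over nursing and by 0.081 in MetS-MetS against MetS-Ct. For the interaction the difference was -0.19. A different measure, the difference of class levels per library described below, had a within-group SD of 0.13. The Ct-MetS difference was 0.063 without Ct-MetS_169, 0.20 without Ct-Ct_33 and 0.23 without Ct-MetS_65, and the nursing difference 0.074 without MetS-MetS_39. The 3 comparisons against Ct-Ct share its libraries. When all 24 genes outside the Pex group replaced the 12 enzymes, the difference was 0.0089 in MetS-MetS, 0.037 in Ct-MetS and 0.12 in MetS-Ct. It was 0.057 with nursing and -0.037 with prenatal exposure.

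Per library, the level of a class was taken as the median over its genes of log2 CPM minus the gene's mean over the 23 libraries. The Pex level averaged 0.19 ± 0.086 in MetS-MetS livers, -0.068 ± 0.18 in Ct-MetS livers and -0.011 ± 0.10 in MetS-Ct livers, against -0.10 ± 0.13 in Ct-Ct (SD). The oxidation level averaged 0.27 ± 0.18 in MetS-MetS livers, -0.0022 ± 0.19 in Ct-MetS livers and 0.031 ± 0.18 in MetS-Ct livers, against -0.22 ± 0.25 in Ct-Ct. Within Ct-Ct the oxidation level fell into a low trio (Ct-Ct_129 -0.52, Ct-Ct_130 -0.38, Ct-Ct_139 -0.43) and a trio near 0 (Ct-Ct_4 -0.028, Ct-Ct_10 0.0051, Ct-Ct_33 0.046). Among MetS-MetS livers it was 0.52, 0.22, 0.071, 0.37 and 0.18, all above Ct-Ct. Of the 36 genes, 12 had their highest value of the series in MetS-MetS_39 and 11 their lowest in Ct-Ct_129, and Ct-Ct_129 also held the highest Scp2. Such counts were not made over all tested genes. Without MetS-MetS_39, 6 genes passed in MetS-MetS, and without Ct-Ct_129 or Ct-Ct_139, 5 did. Pex11a, Pex19, Hsd17b4, Decr2 and Ech1 passed in MetS-MetS whichever 1 of the 23 libraries was left out. Pex11a (adjusted p up to 0.04997) and Ech1 (up to 0.0478) did so narrowly. For Pex19 it reached 0.0367, for Hsd17b4 0.0353 and for Decr2 0.0243.

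**Figure D3:**
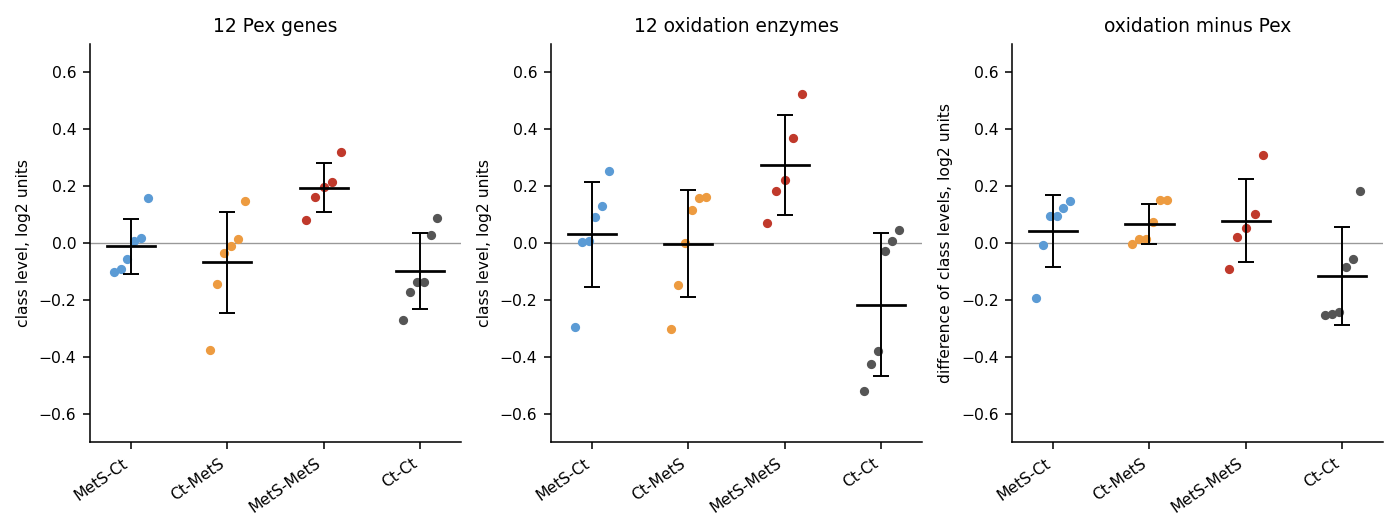
Level per library of the 12 tested Pex genes, the 12 oxidation enzymes and their difference (y axes, log2 units around each gene's mean), by group. Points are libraries, bars the mean ± SD. The 5 MetS-MetS livers sit between 0.071 and 0.52 for oxidation, above all 6 Ct-Ct livers, while the difference overlaps between all groups.

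**Figure D4:**
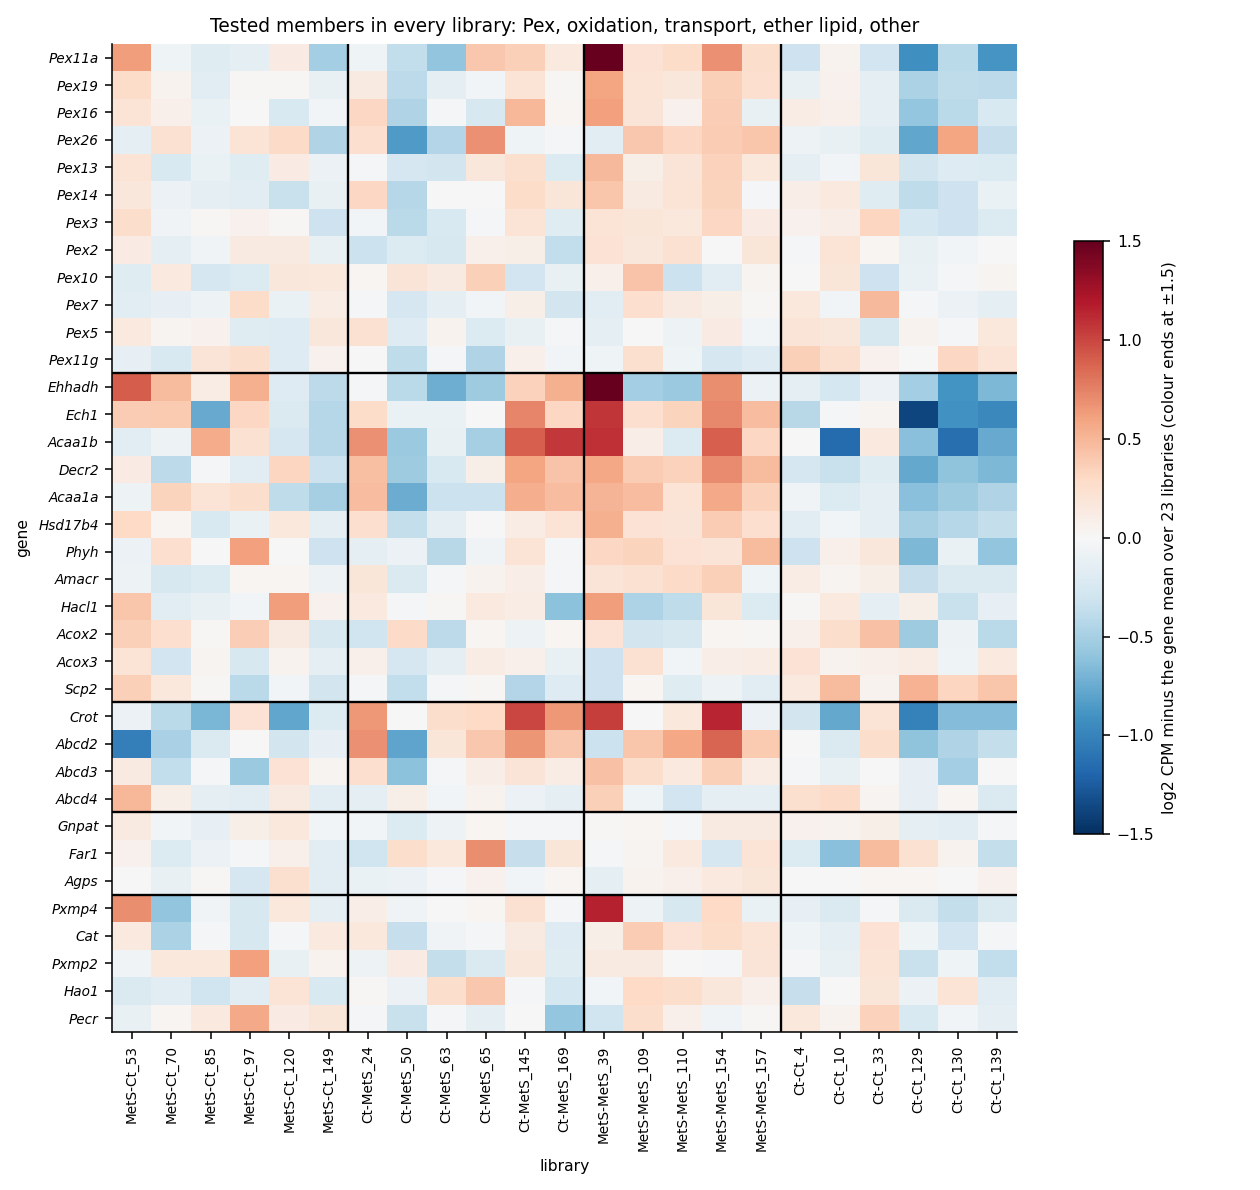
Log2 CPM of the 36 tested genes minus each gene's mean (colour, ends at ±1.5), with libraries in columns by group and genes in rows by role, ordered by the MetS-MetS difference within a role. The MetS-MetS_39 column holds the highest value of 12 genes, and for Scp2 every MetS-MetS liver lies below every Ct-Ct liver.

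Other peroxisomal genes, a list of 64 chosen with earlier results known, had 58 tested. With nursing by MetS dams 5 rose and 1 fell, against 2.27% higher and 1.95% lower of all tested genes. Aldh3a2, a fatty aldehyde dehydrogenase, rose (log2 fold change 0.77 ± 0.14, adjusted p = 0.0032), as did Slc27a2, an activating enzyme and transporter of very long chains (log2 fold change 0.59 ± 0.13, adjusted p = 0.0159), Dhrs4 (0.33 ± 0.071, adjusted p = 0.0116), the acyl-CoA synthetase gene Acsl1 (0.51 ± 0.12, adjusted p = 0.0175) and the enoyl-CoA isomerase gene Eci2 (0.61 ± 0.16, adjusted p = 0.0326). Mpv17l fell (-0.43 ± 0.12, adjusted p = 0.0373). In MetS-MetS against Ct-Ct 12 rose, against 3.06% of all tested genes.

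Of 27 regulators and targets of PPARA outside the 37 genes, also listed with results known, 11 rose with nursing by MetS dams, against 2.27% of all tested genes, and 15 in MetS-MetS, against 3.06%. With nursing the smallest p values belonged to Vnn1, a pantetheinase (log2 fold change 1.88 ± 0.34, adjusted p = 0.00596), Hadha (0.33 ± 0.066, adjusted p = 0.00899) and Hadhb (0.48 ± 0.11, adjusted p = 0.0135), both of the mitochondrial trifunctional protein, the carnitine palmitoyltransferase gene Cpt2 (0.52 ± 0.12, adjusted p = 0.015), the transcription factor gene Creb3l3 (0.43 ± 0.10, adjusted p = 0.0162) and Cpt1a, which admits long chains to mitochondria (0.53 ± 0.13, adjusted p = 0.0223). Ppara itself had 263, 265, 251, 310.4 and 284 CPM in MetS-MetS and 181 to 272 CPM (median 209.7) in Ct-Ct (0.37 ± 0.13, adjusted p = 0.0808). In the same comparison its coactivator gene Ppargc1a was at -0.46 ± 0.41, adjusted p = 0.524, and neither gene passed. Ppargc1a had 106 CPM in Ct-Ct_10 and 18.5 to 36.1 CPM in the other Ct-Ct livers, against 21.1 to 38.6 CPM in MetS-MetS.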

How the data were processed

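Gene counts were deposited by the authors for all 23 libraries. The tools named, per the submitters' processing notes, were STAR, HTSeq, FastQC and DESeq2. The sources used here give neither their versions and roles nor the build, the annotation, the strand setting or the handling of multiply matching reads. Although deposited under a name that says normalized, the values are whole numbers with unequal totals (16876460 to 34527932) and were read as raw counts.

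Of 49585 genes, the 14466 averaging 10 or more counts were tested with edgeR 4.0.16 (R 4.3.3; TMM scaling, robust quasi-likelihood test, 1 mean per group, Benjamini-Hochberg adjustment over all tested genes). CPM used the TMM-scaled totals. The standard error is the log2 fold change divided by the square root of F. DESeq2 1.42.0, limma-voom 3.58.1, other filters and scaling, thinned counts and leaving out each library were alternatives. The code was tested on simulated data. No pair of libraries of the same group was a duplicate, and pairs across groups were not checked. Exon overlaps and shared 50-base stretches came from GENCODE vM21, and level per kilobase used its exon lengths.

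The 37 genes and all lists were chosen with earlier results of these data known. Full statistics are given for genes called in any comparison and for Pex5, Pex7, Pex11a, Acaa1a, Acaa1b, Ehhadh, Cat and Abcd2, and, of the other lists, for up to 6 per direction with the smallest p for nursing, plus Ppara and Ppargc1a. Some genes that this rule names are not reported here. Symbols came from the gene name table given with the files. Ptgr3, Mtarc2 and Tf, absent from it, were looked up as Zadh2, Marc2 and Trf, a pairing made from general knowledge once the files were at hand. Replicates are animals, but litters are not given.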

Additional observations from a re-analysis of the deposited data

Results flagged for a closer look

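The values below come from 1 library that stood apart from the others of its group, by the gap to its nearest neighbour relative to the range of the group. There were 8 among the 144 groups of values looked at (36 genes in 4 groups), and chance alone gives about 1 in 20.

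MetS-MetS_39 held 4 of the 8. Its Ehhadh was 1517 CPM, where the other 4 MetS-MetS livers had 195 to 466. Pex11a was 171 CPM in this liver and 64.6 to 89.7 in the others, and Pxmp4 was 293 CPM against 112 to 161. Pex26, whose product anchors the import machinery to the membrane, was low there, at 32.2 CPM against 44.9 to 48.3. Outside the 37 genes, the fatty acid hydroxylase gene Cyp4a10 had, in MetS-MetS_39, 2639.6 CPM, where the others had 100.3 to 556, and Cyp4a14 had 5930.2 CPM, where the others had 215 to 1011. Cyp4a31 had 454 CPM, where the others had 59.5 to 234, and Cyp4a32 had 102 CPM, where the others had 32.1 to 71.0: both were highest in MetS-MetS_39 but closer to the next liver.

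In MetS-Ct, Hao1 was 389 CPM in MetS-Ct_120 against 275 to 301 in the other 5 livers. Pxmp2 was 201 CPM in MetS-Ct_97, the liver labelled day 22, against 122 to 146 in the others. In Ct-MetS, Hacl1 was 351 CPM in Ct-MetS_169 against 523 to 595. In Ct-Ct, Abcd3 was 348 CPM in Ct-Ct_130 against 453 to 494. The causes were not tested.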

How the results depend on the processing

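No paired analysis was possible because no animal number is shared between groups. In MetS-MetS against Ct-Ct, 9 of the 36 genes were called, 6 with no filter on low counts and 13 with DESeq2. The calls lost with no filter were Pex13, Acaa1a (adjusted p = 0.0614) and Crot. Leaving out 1 library gave 5 (without Ct-Ct_129 or Ct-Ct_139) to 13 (without Ct-Ct_33). With nursing by MetS dams 6 were called, 3 with no filter and 10 with DESeq2. The nursing calls lost with no filter were Abcd2, Ech1 and Hsd17b4 (adjusted p = 0.0744 for each of the last 2). Leaving out 1 library gave 2 (without MetS-MetS_154) to 13 (without Ct-MetS_50), and 3 without MetS-Ct_85, Ct-MetS_145, Ct-MetS_169, MetS-MetS_39, Ct-Ct_129, Ct-Ct_130 or Ct-Ct_139. The 1 call in Ct-MetS against Ct-Ct became 0 with no filter, with thinned counts and with only the groups compared, 3 with DESeq2 and 2 with limma-voom. Leaving out 1 library gave 0 to 3. Prenatal exposure averaged over nursing had 0 calls with edgeR and 1 (Pex19) with DESeq2.

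Pex7 in MetS-MetS, at -0.0042, turned to 0.0062 with limma-voom and 0.014 with thinned counts, and lay between -0.052 and 0.094 with 1 library left out. The difference between the oxidation and Pex medians changed when taken over all 24 genes outside the Pex group. It became 0.12 in MetS-Ct (from 0.26), 0.0089 in MetS-MetS (from 0.27) and -0.037 with prenatal exposure (from 0.14). Without single libraries some genes were called in addition: in MetS-MetS Ehhadh without MetS-MetS_109, Abcd2 without Ct-MetS_50, MetS-MetS_39 or Ct-Ct_33, and Acaa1b without Ct-MetS_50 or Ct-Ct_33; with nursing Pex11a without MetS-Ct_53 or Ct-MetS_50, Pex19 without these or Ct-Ct_10, Acaa1a without Ct-MetS_50, and Acaa1b without Ct-MetS_50 or Ct-Ct_33. Pex13 in MetS-MetS was past the threshold in neither limma-voom (adjusted p = 0.0609) nor filterByExpr, thinning, no filter or the groups alone. The causes were not tested.

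Over all tested genes, DESeq2 called 1346 in MetS-MetS (edgeR 836), 425 in Ct-MetS (138) and 12 in MetS-Ct (0) against Ct-Ct, 136 in MetS-MetS against MetS-Ct (60), 1038 with nursing (611), 140 with prenatal exposure (1) and 4 in the interaction (0). With no filter there were 457 in MetS-MetS, 20 in MetS-MetS against MetS-Ct and 367 with nursing. In limma-voom there were 527 in MetS-MetS and 16 in MetS-MetS against MetS-Ct. That last comparison had 31 with filterByExpr, 7 with thinned counts and 23 with only its groups. Ct-MetS had 47 with only the groups compared, and prenatal exposure 0 with thinned counts.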
